A study of Mus musculus with 25 samples.

Results

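This report describes 10 genes of the connective sheath that wraps the dorsal root ganglion, measured in 25 microarrays of mouse lumbar ganglia. The genes are Slc6a13, Slc22a6, Slc47a1, Aldh1a2, Ptgds, Foxc2, Foxd1, Igfbp2, Igf2 and Dcn. They were taken by gene symbol, with 1 probe set per gene, the one of highest mean over the 25 arrays. All 10 had a probe set and passed the limit on low values, so they are 10 of the 20260 genes tested. Each gene was read across the 9 groups of treatment and time, and array by array as a gauge of sheath tissue in each sample.

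The tissue was the dorsal root ganglion of levels L3 to L5 from male C57BL/6 mice, which holds the cell bodies of hind limb sensory neurons. Mice had DMM surgery (destabilization of the medial meniscus, a model of knee osteoarthritis) or sham surgery, both on the right knee when the mice were 10 weeks old, or no treatment (naive). Ganglia were taken 4, 8 or 16 weeks later, at 14, 18 or 26 weeks of age, with naive mice of the same ages. DMM, sham and naive groups held 3 arrays each at each time, except for sham at 8 weeks, which held 1. The labels give neither the number of animals behind an array, nor the side of the ganglia, nor a batch. Each p-value therefore measures the spread between these arrays, which may be technical. Values are deposited log2 intensities, so a difference of 1 is a doubling.

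The ganglion capsule continues the meninges that cover the spinal cord and the nerve roots. Meningeal and arachnoid fibroblasts make collagen-rich matrix, form a barrier towards the cerebrospinal fluid and carry many solute transporters. They are also a known source of retinoic acid, of prostaglandin D2 and of insulin-like growth factor 2. In a whole ganglion, fewer sheath cells and less RNA per sheath cell cannot be told apart.

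The genes lie apart in the mouse genome, on 10 different chromosomes (1, 2, 6, 7, 8, 9, 10, 11, 13 and 19), so none of them is a close neighbour of another. RefSeq promoter windows of GRCm38.p6 were at hand for 7 of the 10 (Slc6a13, Slc22a6, Aldh1a2, Ptgds, Foxd1, Igfbp2 and Igf2). Shown here are the 250 bases before a listed start for the genes of widest range over the arrays among those 7, since their values moved together. Ptgds lies at chr2:25469750-25469999 on the minus strand, Aldh1a2 at chr9:71215539-71215788 and Slc6a13 at chr6:121300038-121300287, both on the plus strand. Capitals mark GC boxes (GGGCGG on either strand).
Ptgds: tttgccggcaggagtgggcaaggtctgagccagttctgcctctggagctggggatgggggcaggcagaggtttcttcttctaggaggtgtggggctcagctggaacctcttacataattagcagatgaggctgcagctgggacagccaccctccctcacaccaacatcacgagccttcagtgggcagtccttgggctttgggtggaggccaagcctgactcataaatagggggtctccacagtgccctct
Aldh1a2: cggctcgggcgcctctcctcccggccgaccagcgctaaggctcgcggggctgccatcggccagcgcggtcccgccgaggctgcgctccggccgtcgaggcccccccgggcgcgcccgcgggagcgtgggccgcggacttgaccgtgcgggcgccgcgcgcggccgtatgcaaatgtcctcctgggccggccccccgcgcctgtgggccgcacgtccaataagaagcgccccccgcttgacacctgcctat
Slc6a13: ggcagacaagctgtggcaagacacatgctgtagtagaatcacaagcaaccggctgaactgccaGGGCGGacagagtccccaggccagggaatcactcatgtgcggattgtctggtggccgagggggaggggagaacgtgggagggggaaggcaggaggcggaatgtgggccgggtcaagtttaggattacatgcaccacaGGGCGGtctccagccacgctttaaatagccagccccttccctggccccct

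The promoter windows were searched on both strands for 4 short motifs. Where RefSeq lists several starts each window was searched, 13 windows in all. The GC box was found in 5 of the 13, from 4 genes (Foxd1, Igf2, Igfbp2 and Slc6a13), beside 32.7% of 32851 windows of the same length over all genes. In the Slc6a13 window shown the boxes begin 187 and 50 bases before the start. The forkhead core TGTTTAC was found in 0 of the 13 windows, beside 3.17% of all windows. Its shorter form TGTTTA, which the core contains, was found in 1 window, of Igfbp2, beside 12.03% of all windows. The TATA sequence TATAAA was found in 0 of the 13, beside 12.4% of all windows.

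No gene of the set passed the test in any comparison, and the clearest feature of all 10 was how far single arrays lay apart. The widest range belonged to Ptgds, the lipocalin-type prostaglandin D synthase, which ran from 7.74 to 15.64 over the 25 arrays, a 239-fold span. Aldh1a2 spanned 15.8-fold, Slc47a1 15.4-fold, Slc6a13 11.9-fold and Igf2 11.4-fold. These 5 genes were the most variable of the set. Slc22a6 spanned 5.22-fold, Foxc2 4.09-fold, Dcn 3.17-fold, Igfbp2 2.98-fold and Foxd1 2.32-fold. The residual SD, which is the spread between arrays of a group, was 0.25 for Foxd1 to 2.45 for Ptgds. These values lay between the 91.9th and the 99.995th percentile of all genes, whose median was 0.121. The genes were chosen with earlier results of these data known, so the percentiles only describe them.

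**Figure D1:**
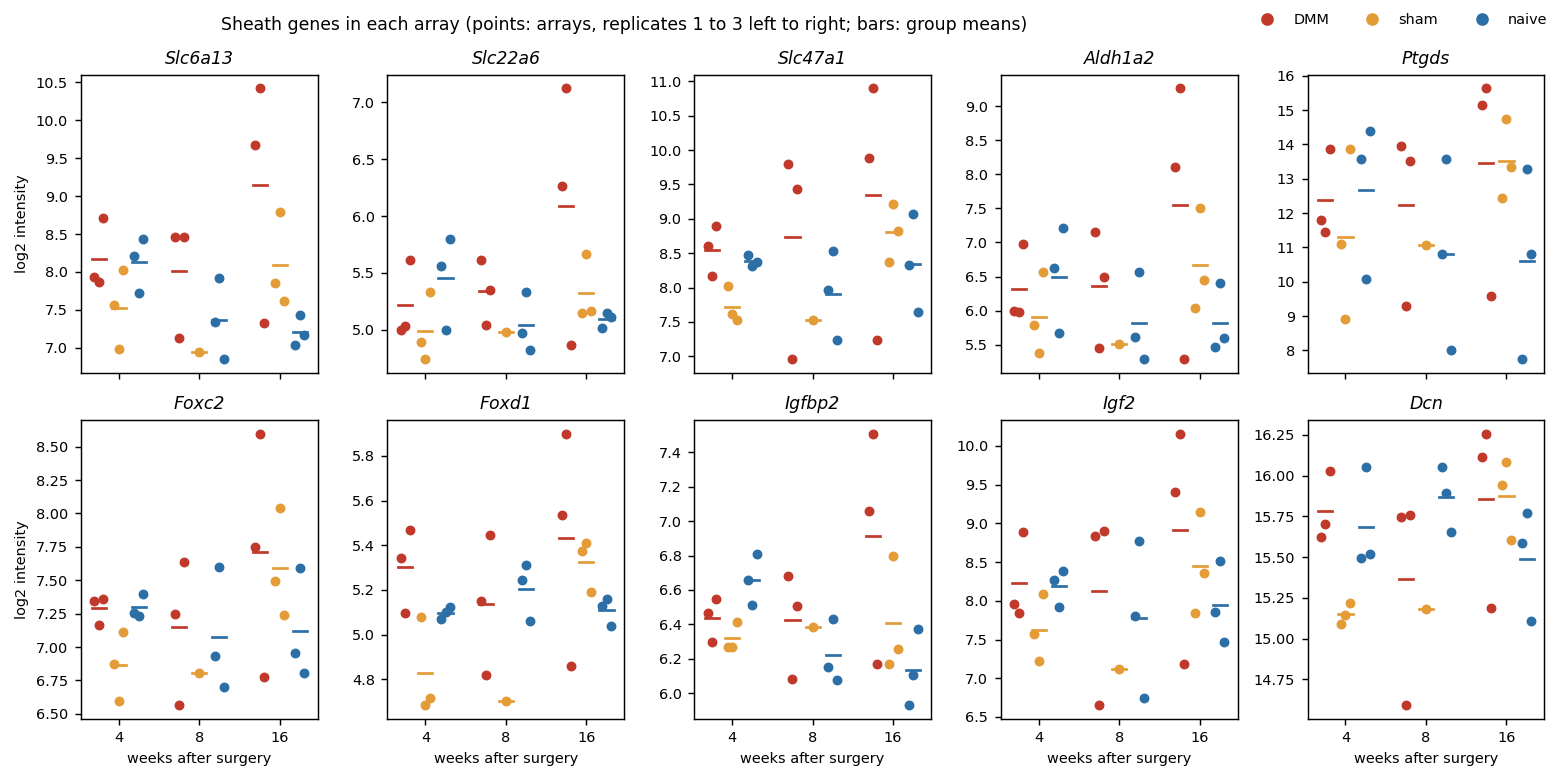
Deposited log2 intensity (vertical axes, each with its own scale) of the 10 sheath genes at 4, 8 and 16 weeks after surgery, with DMM left of sham and naive at each time. Points are arrays and bars are group means; in 9 of 10 genes the widest group is DMM at 16 weeks, where replicates 1 and 2 are high and replicate 3 is low.

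Slc6a13 encodes GAT2, a sodium-coupled transporter of GABA and taurine. At 4 weeks it read 7.94, 7.87 and 8.72 in DMM arrays, against 7.56, 6.98 and 8.03 in sham and 8.22, 7.72 and 8.44 in naive arrays. At 8 weeks it read 8.46, 7.12 and 8.46 in DMM arrays, against 6.94 in the sham array and 7.34, 7.92 and 6.85 in naive arrays. At 16 weeks it read 9.67, 10.42 and 7.33 in DMM arrays, against 7.86, 8.80 and 7.62 in sham and 7.04, 7.43 and 7.17 in naive arrays. DMM replicates 1 and 2 at 16 weeks were the highest of all 25 arrays, but replicate 3 lay among the naive arrays, so DMM overlapped both other groups. All 3 sham arrays lay above all 3 naive arrays at 16 weeks. Slc6a13 was highest in DMM at 16 weeks (9.14 ± 1.62, SD, n = 3) and lowest in the lone sham array at 8 weeks. Of the 8 gaps between neighbouring group means only the one between DMM at 16 and at 4 weeks (0.96) was larger than its residual SD of 0.75.

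Slc22a6 encodes OAT1, an organic anion transporter best known from the kidney. At 16 weeks it read 6.26, 7.12 and 4.86 in DMM arrays, against 5.15, 5.66 and 5.17 in sham and 5.02, 5.15 and 5.12 in naive arrays. The 3 naive arrays lay within 0.13 of each other, and the DMM arrays lay on both sides of them. This probe set was dim: it exceeded the array's median of the negative control probe sets (5.06 to 5.35 over the arrays) in 10 of 25 arrays. Slc47a1 encodes MATE1, which exports organic cations in exchange for protons. It averaged 9.34 ± 1.89 in DMM, 8.81 ± 0.42 in sham and 8.35 ± 0.71 in naive arrays at 16 weeks (SD, n = 3 each). At 4 weeks it read 8.60, 8.16 and 8.89 in DMM arrays, against 8.02, 7.62 and 7.53 in sham and 8.48, 8.31 and 8.37 in naive arrays. Every sham array at 4 weeks thus lay below every DMM and every naive array.

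Aldh1a2 encodes RALDH2, the enzyme that makes retinoic acid from retinaldehyde. At 16 weeks it read 8.10, 9.26 and 5.28 in DMM arrays, against 6.05, 7.50 and 6.46 in sham and 5.46, 6.40 and 5.60 in naive arrays. Replicate 3 of DMM lay below all naive arrays of that time and replicates 1 and 2 above them. Ptgds makes prostaglandin D2 and is secreted into the cerebrospinal fluid. At 16 weeks Ptgds read 15.14, 15.64 and 9.58 in DMM arrays, against 12.44, 14.73 and 13.35 in sham and 7.74, 13.30 and 10.80 in naive arrays. At 8 weeks it read 13.94, 9.30 and 13.51 in DMM arrays, against 11.07 in the sham array and 10.80, 13.58 and 8.01 in naive arrays. At 4 weeks it read 11.80, 11.45 and 13.87 in DMM arrays, against 11.09, 8.92 and 13.88 in sham and 13.57, 10.08 and 14.40 in naive arrays. Ptgds thus differed by more than 4 log2 units between arrays of 1 group in 6 of the 8 groups with 3 arrays, naive groups included.

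Foxc2 and Foxd1 encode forkhead transcription factors of mesenchymal cells. Foxc2 averaged 7.71 ± 0.91 in DMM, 7.59 ± 0.41 in sham and 7.12 ± 0.42 in naive arrays at 16 weeks, and 7.29 ± 0.11 in DMM, 6.86 ± 0.26 in sham and 7.30 ± 0.09 in naive arrays at 4 weeks (SD, n = 3 each). Foxd1 read 5.34, 5.09 and 5.47 in DMM arrays at 4 weeks, against 5.08, 4.68 and 4.72 in sham and 5.07, 5.10 and 5.12 in naive arrays. For both genes every DMM array at 4 weeks lay above every sham array. Foxd1 was dim as well and exceeded the negative control median in 12 of 25 arrays.

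Igf2, a growth factor, averaged 8.92 ± 1.55 in DMM, 8.45 ± 0.66 in sham and 7.95 ± 0.53 in naive arrays at 16 weeks (SD, n = 3 each). Igfbp2, a secreted protein that binds insulin-like growth factors, read 7.06, 7.51 and 6.17 in DMM arrays at 16 weeks, against 6.17, 6.80 and 6.26 in sham and 5.93, 6.11 and 6.37 in naive arrays. DMM replicate 3 again lay within the range of the naive arrays. Dcn encodes decorin, a small leucine-rich proteoglycan of collagen fibrils that many fibroblasts make, and it was the only one of the 10 above the 95th percentile of the negative controls in all 25 arrays. Dcn read 15.62, 15.70 and 16.03 in DMM arrays at 4 weeks, against 15.09, 15.14 and 15.22 in sham and 15.49, 16.05 and 15.52 in naive arrays. Sham arrays at 4 weeks lay below all others of that time. At 16 weeks the groups overlapped, with 15.85 ± 0.58 in DMM, 15.88 ± 0.25 in sham and 15.49 ± 0.34 in naive arrays (SD, n = 3 each).

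Across the 9 groups, DMM at 16 weeks had the highest mean in 8 genes and sham at 16 weeks in the other 2 (Ptgds and Dcn). The lone sham array at 8 weeks was lowest in 7 genes. Neighbours in the order of group means were mostly closer than the residual SD: at most 1 of the 8 gaps exceeded it, in Slc6a13, Slc22a6 and Foxd1, and 0 gaps did in the other 7 genes. In limma's moderated F test over all 9 groups, 0 of 10 genes passed, beside 10.8% of all genes. The adjusted p ran from 0.197 for Slc6a13 to 0.778 for Ptgds.

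Read array by array, the 10 genes ranked the arrays alike at the top and, for most genes, at the bottom. The mean z-score over the 10 genes, in SD units of each gene over the 25 arrays, was highest in DMM replicate 2 at 16 weeks (2.62). This array held the highest value of all 25 in each of the 10 genes. DMM replicate 1 at 16 weeks followed with 1.55 and sham replicate 2 at 16 weeks with 1.09, and both also had all 10 genes among that gene's 5 highest arrays. At the low end stood DMM replicate 2 at 8 weeks with -1.30, sham replicate 2 at 4 weeks with -1.12, naive replicate 3 at 8 weeks with -1.04 and DMM replicate 3 at 16 weeks with -0.996. In these arrays 9, 8, 8 and 7 of the 10 genes were among that gene's 5 lowest. The extremes of the ranking thus included arrays of the same group, and the low end held all 3 treatments.

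**Figure D2:**
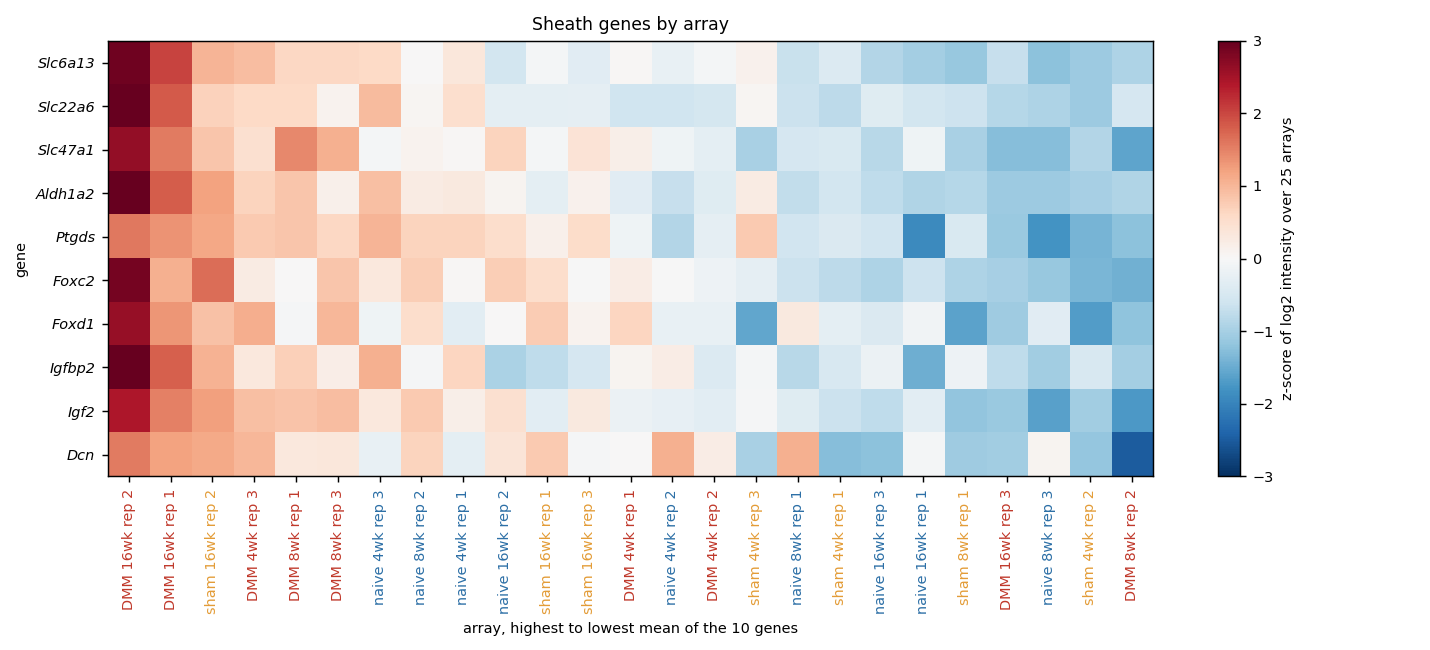
Each column is an array, ordered from the highest (left) to the lowest mean z-score of the 10 sheath genes, and each row a gene; colour is the z-score of the log2 intensity over the 25 arrays, red high and blue low, and label colour marks DMM (red), sham (orange) and naive (blue). The columns change colour nearly as a block, from DMM replicate 2 at 16 weeks (mean z-score 2.62) to DMM replicate 2 at 8 weeks (-1.30).

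By group, the mean z-score was 0.15 ± 0.49 in DMM, -0.67 ± 0.43 in sham and 0.17 ± 0.33 in naive arrays at 4 weeks (SD, n = 3 each). At 8 weeks it was -0.03 ± 1.10 in DMM and -0.34 ± 0.71 in naive arrays (n = 3 each), and -0.90 in the sham array. At 16 weeks it was 1.06 ± 1.86 in DMM, 0.39 ± 0.61 in sham and -0.43 ± 0.47 in naive arrays (n = 3 each). The SD within DMM at 16 weeks exceeded the distance between any 2 means of groups with 3 arrays.

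The genes co-varied in every pairing. Over the 25 arrays the 45 pairs had Pearson's r between 0.485 and 0.965, with a median of 0.811, and Spearman's rho between 0.405 and 0.977. Of all pairs of the 20260 genes, 4.37% had r at or above the lowest and 0.0841% at or above the median of the 45. The pairs share arrays and normalization, and the genes were chosen with earlier results of these data known, so the p-values that follow describe them and support nothing. In two-sided permutation tests of 100000 resamples, all 45 pairs had Benjamini-Hochberg adjusted p-values under 0.05 by both measures, the highest being 0.0136 for r and 0.0455 for rho. Without the 2 arrays farthest from the median of the gene on the x axis, r ran from 0.285 to 0.935, with a median of 0.732. Deviations from the group means were also correlated, over the 24 arrays of groups with 3. Their r ran from 0.535 to 0.970, with a median of 0.840. The genes thus also co-varied within groups. How far these within-group values rest on the arrays of the widest group was not tested. The tightest pair was Slc22a6 with Aldh1a2 by r (0.965) and Aldh1a2 with Ptgds by rho (0.977). Dcn was the loosest member, with a median r of 0.623 to the other 9, and its lowest was with Igfbp2.

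The genes did not move by equal amounts. Per log2 unit of the mean of the other 9, Ptgds moved by 3.28, Aldh1a2 by 1.33, Slc47a1 by 1.17, Slc6a13 by 1.14 and Igf2 by 1.13. The slopes were smaller for Slc22a6 (0.62), Foxc2 (0.57), Igfbp2 (0.38), Dcn (0.35) and Foxd1 (0.28). Slc22a6 and Foxd1 were the dimmest probe sets, close to the negative controls.

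DMM against naive mice asks what differs in animals with a destabilized knee. At 4 and 8 weeks the median difference of the 10 genes was 0.02 and 0.32 on the log2 scale, beside -0.03 and -0.0013 for all genes. None passed, beside 0.00987% of all genes at 4 weeks and 0.0494% at 8 weeks. At 16 weeks all 10 differences were above 0, beside 53% of all genes, with a median of 0.98 beside 0.01 for all genes. The genes co-varied over the arrays, so their signs are not 10 separate observations. Again 0 of 10 passed, beside 0.0148% of all genes. An unadjusted p under 0.05 was reached by 4 of the 10, beside 5.43% of all genes in that direction.

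These 4 genes were Slc6a13, with a difference of 1.93 ± 0.56 (SE) or 3.81-fold (limma adjusted p = 0.398), Igfbp2 with 0.77 ± 0.24 (adjusted p = 0.443), Slc22a6 with 0.99 ± 0.37 (adjusted p = 0.506) and Aldh1a2 with 1.73 ± 0.72 (adjusted p = 0.531). The largest estimate was that of Ptgds, at 2.84 ± 1.82, with a 95% interval from -0.97 to 6.65 (adjusted p = 0.673). In all 10 genes DMM replicates 1 and 2 lay above every naive array and replicate 3 did not, so the groups overlapped. Without that array 4 of 10 passed, beside 1.6% of all genes. They were Slc6a13 (2.84, adjusted p = 0.00391), Igfbp2 (1.14, adjusted p = 0.00652), Slc22a6 (1.60, adjusted p = 0.00729) and Aldh1a2 (2.86, adjusted p = 0.0196). The median of the 10 was then 1.72, and it was 0.41 without the highest DMM array instead. Averaged over the 3 times, the median difference was 0.40 and 0 of 10 passed, beside 0.0444% of all genes.

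**Figure D3:**
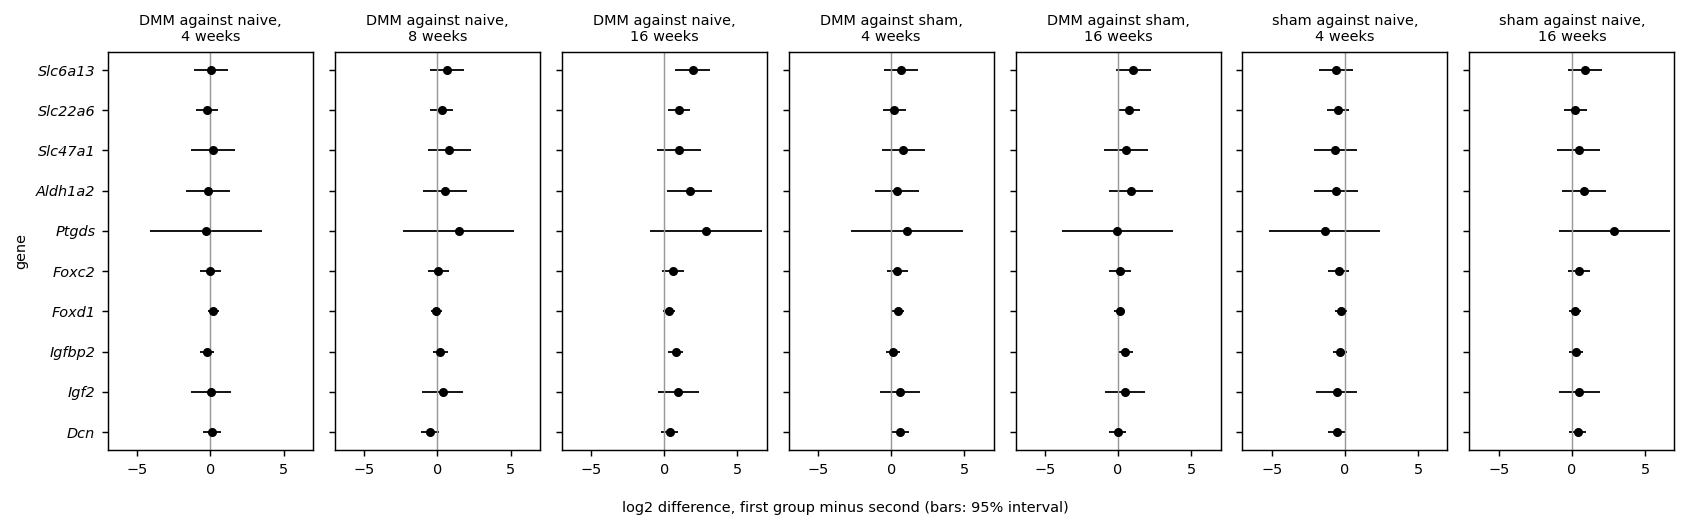
Log2 difference, first group minus second, of the 10 sheath genes (rows) in 7 comparisons (panels), with 95% intervals from limma as bars. For DMM against naive at 16 weeks all 10 points lie right of 0 and 4 intervals exclude 0, but no gene passed after adjustment over 20260 genes.

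DMM against sham mice separates the unstable joint from the operation. At 4 weeks the median difference was 0.54 and 0 of 10 genes passed, as did 0% of all genes, by limma. An unadjusted p under 0.05 was reached by Foxd1 (0.47 ± 0.19, adjusted p = 0.986) and Dcn (0.64 ± 0.28, adjusted p = 0.986), beside 3.12% of all genes in that direction. The DMM arrays lay wholly above the sham arrays in 4 genes (Slc47a1, Foxc2, Foxd1 and Dcn), beside 7.95% of all genes. At 16 weeks the median was 0.48 and 0 of 10 passed, beside 0.00494% of all genes. Igfbp2 had an unadjusted p under 0.05 (0.50 ± 0.24, adjusted p = 0.759), beside 1.76% of all genes in that direction, and Slc22a6 differed by 0.76 ± 0.37 (adjusted p = 0.759). The 16-week median turned to -0.14 without DMM replicate 2 and was 1.35 without DMM replicate 3, so 1 array set its direction. Averaged over both times the median was 0.50 and 0 of 10 passed, beside 0.00987% of all genes.

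Sham against naive mice asks what the operation itself leaves. At 4 weeks 0 of 10 differences were above 0, beside 36.1% of all genes, with a median of -0.55 beside -0.05 for all genes. None passed, beside 0.331% of all genes, and 0 had an unadjusted p under 0.05, beside 15.9% of all genes. In 4 genes (Slc47a1, Foxc2, Igfbp2 and Dcn) every sham array lay below every naive array, beside 16.7% of all genes. Dcn differed by -0.54 ± 0.28 (limma adjusted p = 0.367) and Slc47a1 by -0.66 ± 0.71 (adjusted p = 0.686). At 16 weeks all 10 differences were above 0, beside 57.3% of all genes, with a median of 0.47 beside 0.02 for all genes. Here too 0 of 10 passed, beside 0.00494% of all genes, and the arrays did not overlap in 3 genes (Slc6a13, Slc22a6 and Foxd1), beside 12.2% of all genes. For Slc22a6 the lowest sham array read 5.1505 and the highest naive array 5.1496. For Foxd1 they read 5.192 and 5.161. Both probe sets were dim, so these separations were slight. Ptgds had the largest estimate, 2.90 ± 1.82 (adjusted p = 0.618). These comparisons share their naive arrays with those of DMM against naive mice. Because the genes co-varied, the like signs at each time are not 10 separate observations here either.

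The change of the sham difference between 16 and 4 weeks, added after the values were seen, had a median of 0.995, with 0 of 10 genes past the threshold beside 2.09% of all genes. The nearest was Dcn, at 0.92 ± 0.40 (limma adjusted p = 0.206). The change of the DMM difference from naive had a median of 0.96 with 0 of 10 past it, beside 0.00494% of all genes, and Igfbp2 came nearest at 0.998 ± 0.337 (adjusted p = 0.371). Against sham that change had a median of -0.22, and 0 of 10 passed, beside 0% of all genes.

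Time within each treatment was also tested. In DMM mice at 16 against 4 weeks the median was 0.74, and 0 of 10 passed beside 2.87% of all genes. It was 0.04 without DMM replicate 2 of 16 weeks. Without DMM replicate 3 it was 1.51, and Slc6a13, Slc22a6, Aldh1a2 and Igfbp2 passed, beside 2.58% of all genes. In sham mice the median was 0.73 and 0 of 10 passed, beside 1.76% of all genes. Slc47a1, Foxc2, Foxd1 and Dcn had every 16-week sham array above every 4-week one, beside 15.2% of all genes. In naive mice the median was -0.30 and 0 of 10 passed, beside 18.8% of all genes. Slc6a13 (-0.91 ± 0.56, limma adjusted p = 0.264) and Igfbp2 (-0.52 ± 0.24, adjusted p = 0.131) had every 16-week naive array below every 4-week one, beside 26.2% of all genes.

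Other meningeal genes followed the same ranking of arrays. The list of 24 measured genes held further transporters, barrier proteins, transcription factors and matrix genes of the meninges. Its mean over genes ran from 7.02 in DMM replicate 2 at 8 weeks to 9.37 in DMM replicate 2 at 16 weeks, and had r = 0.99 with the mean z-score of the 10 genes over the 25 arrays. Of the 24, 15 had r above 0.8, beside 1.36% of all genes. Slc6a20a, a proline transporter, had r = 0.96 and spanned 6.55 to 12.73. Ranbp3l (r = 0.93) spanned 4.52 to 10.75, and Slc22a8, the organic anion transporter OAT3 (r = 0.94), spanned 5.30 to 10.66. Cldn11, a tight junction protein of the arachnoid barrier, had r = 0.96. The exceptions included Abcg2 (0.06), Cdh1 (0.15) and Rdh10 (-0.23). Such correlations describe the same arrays and share their normalization.

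The lists nearest to the genes' own roles split by gene. Of 13 retinoic acid genes tested, 6 had r above 0.8, among them the carriers Rbp4 and Crabp2 (0.97 each), Aldh1a1 (0.93) and the retinoid reductase Dhrs3 (0.91), while Crabp1 had -0.25 and Aldh1a3 -0.18. Of 12 other genes listed for transport of organic ions, GABA and further solutes, 3 did. They were Slc6a12 (0.95), Slc22a8 and Abcb1a (0.89), while the GABA transporter Slc6a11 had -0.08. In the growth factor axis Igfbp6 (0.88), Igf1 (0.83) and Igfbp5 (0.82) followed, and the receptor Igf1r (-0.25) did not. Among the leucine-rich proteoglycans related to decorin, Fmod (0.95), Bgn (0.86), Prelp (0.85) and Omd (0.84) passed 0.8. Of 8 other genes of the prostaglandin list, which also holds Tbxas1, Pparg and Lcn2, 1 did, the prostacyclin synthase Ptgis (0.85). The other prostaglandin D synthase, Hpgds, had 0.24.

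Some genes stand in more than 1 list. Neither these 5 lists nor that of other meningeal genes had a member past the threshold in DMM against naive mice at 16 weeks. The medians there were 0.08 for the prostaglandin list (6 of 8 above 0), 0.61 for the other meningeal genes (23 of 24 above 0) and 0.36 for the proteoglycans (8 of 10). They were 0.12 for retinoic acid genes (11 of 13) and 0.09 for both the growth factor axis (7 of 11) and the transporters (9 of 12), beside 0.01 for all genes. Of all genes, 53% had a difference above 0 and 0.0148% passed the threshold. Slc6a20a differed by 2.73, Ranbp3l by 2.68, Slc22a8 by 2.303 and Fmod by 1.91.

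Markers of other cell types were read beside these values. The fibroblast list of 16 genes had r = 0.89 with the mean z-score (5 genes above 0.8, led by Fbln1 with 0.96 and Col6a1 with 0.94), and the perineurium list of 7 genes had 0.87, with Lypd2 at 0.92. Endothelial markers had r = 0.67 and rho = 0.44, with Cdh5 at 0.90 and Kdr at 0.10, and r was 0.37 without the 2 arrays farthest from the median. Pericyte and smooth muscle markers had r = 0.65 and rho = 0.48, with all 8 genes above 0, and r was 0.45 without those arrays. Satellite glia markers had 0.00 and ran only from 10.39 to 10.78 over the arrays, and markers of myelinating Schwann cells had 0.38. Sensory neuron markers ran from 14.94 to 15.21 and had -0.56, with 9 of 10 genes below 0. Skeletal muscle (-0.14), central glia (0.03) and bone and cartilage markers (0.03) did not follow. Nerve injury markers had -0.36, with r above 0 in 0 of 10 genes. Their mean ran from 7.37 in DMM replicate 1 at 16 weeks to 9.60 in naive replicate 1 at 4 weeks. The adipocyte and red cell lists kept only 1 gene each, Fabp4 (0.35) and Alas2 (0.43), and Alas2 ran from 6.23 to 11.82. Of the 6 choroid plexus markers 3 passed the limit on low values, and their mean had r = 0.88. Kcnj13 had r = 0.93 and averaged 9.03, Clic6 had 0.45, and the defining marker Ttr had -0.34 and averaged 4.997, below the negative control medians.

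**Figure D4:**
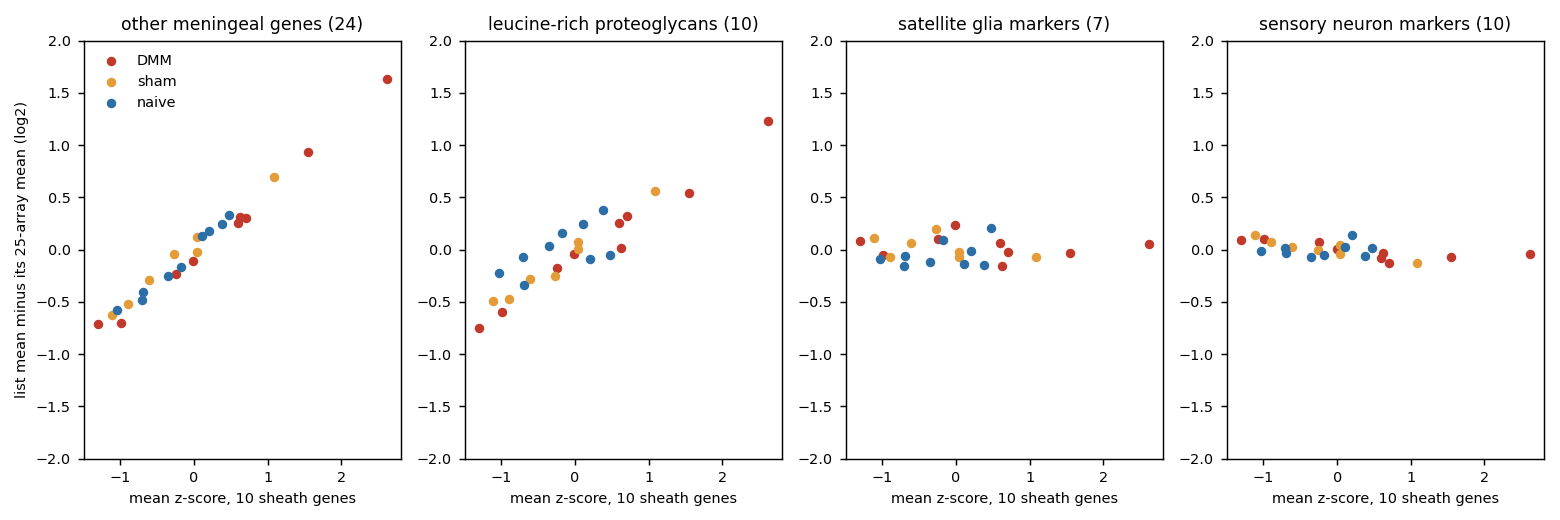
Each point is an array: the horizontal axis is the mean z-score of the 10 sheath genes and the vertical axis the mean log2 intensity of a marker list minus its mean over the 25 arrays, on 1 scale for all 4 panels. Other meningeal genes (r = 0.99) and leucine-rich proteoglycans (r = 0.93) slope upwards, whereas satellite glia (0.00) and sensory neuron markers (-0.56) stay nearly level.

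Macrophage markers had r = 0.29 with the sheath genes over the arrays. In DMM against naive mice at 16 weeks all 12 were estimated higher, beside 53% of all genes, with a median of 0.47. None passed the threshold, beside 0.0148% of all genes. In sham against naive mice at 4 weeks all 12 were estimated lower, with a median of -0.58, while 36.1% of all genes had a difference above 0. In the main fit 4 of them (Cd68, Csf1r, C1qc and Mrc1) were called lower, beside 0.281% of all genes. Leaving out 1 array of these groups at a time gave 2 macrophage calls without sham replicate 1 and 0 in each of the other 5 repeats, and 0 to 11 of all genes passed over the 6. With no filter, array median centring, the replicate block or only the arrays compared, 0 macrophage genes were called. Array weights gave 8 and the stricter filter 5 of 11. Cyclic loess, quantile normalization, the trend and robust prior and the probe set of highest variance gave 4 each. The part of the macrophage markers in the sheath genes' differences was not tested.

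The genes most like the set were found by r with the mean z-score over the 25 arrays, among the 20250 other genes. Slc13a4, a sulfate transporter, came first with 0.986, and Aebp1, a collagen-binding protein, followed with 0.982. Fibronectin (Fn1) had 0.981 and ran from 8.72 to 14.04. Eya1, a transcription cofactor, had 0.975, Itih2, which binds hyaluronan, 0.974, Vtn (vitronectin) 0.973 and Arhgap29 0.971. Rbp4, Crabp2 and Ptpn14, a phosphatase, had 0.968 each. The first 7 kept their place among the 10 in all 25 repeats that left out 1 array, and 8 of the 10 were shared with the ranking by deviations from the group means. In all, 276 genes (1.36%) had r above 0.8, 102 above 0.9 and 12 below -0.8.

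The nearest gene to each member was found in the same way. Slc6a13 was most like its paralogue Slc6a12 (0.976), Slc22a6 most like Slc38a3 (0.984), Slc47a1 most like Slc4a10 (0.965) and Aldh1a2 most like Slc22a8 (0.991). Ptgds was most like Ranbp3l (0.958), Igf2 most like Eya1 (0.949), Foxc2 most like Fbln1 (0.951) and Dcn most like Vit (0.952). Igfbp2 was most like Trp53i11 (0.929) and Foxd1 most like Egfr (0.923). The other 9 members ranked at a median of place 61 for Ptgds to place 561 for Dcn among 20259 genes.

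As a gauge over the whole array, the mean z-score had r = 0.906 in size with the second principal component of all genes, which held 15.0% of the variance, and 0.357 with the first, which held 23.1%. It was then entered as a covariate in the fit of all genes, a setting chosen after the values were seen. In sham against naive mice at 4 weeks 3 genes passed with the covariate, against 67 without it. In sham mice at 16 against 4 weeks 165 passed with it, against 357 without it, and in the change of the sham difference 115 against 424. Leaving out 1 array at a time, without the covariate, gave 0 to 11, 7 to 268 and 122 to 439 genes in these 3 comparisons. The count of 115 lay below the last of these ranges. Such repeats also make a group smaller, which the covariate does not, so these counts are not like for like. In DMM against naive mice 18 genes passed at 8 weeks with it, against 10 without it, and 17 in the average over times, against 9, where leaving out 1 array gave 4 to 120 and 7 to 26. Naive mice at 16 against 4 weeks gave 3844 genes with it, against 3811 without it, and DMM mice 569 against 582.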

How the data were processed

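The labels give naive, sham and DMM mice at 3 times, and samples were grouped by title. The deposited table holds log2 intensities per probe set; the scale was read from the values, and how the authors normalized and summarized them is not given in the sources used here. Arrays have no read depth; their number limits the precision. Of 65956 transcript probe sets, 30604 carried 1 symbol in the platform annotation, 2146 several and 33206 none; 827 symbols were updated by Entrez identifier. The probe set of highest mean stood for a gene, and 20260 of 30142 genes had a mean above 4.52, the 40th percentile of probe set means. The fit used limma 3.58.1 in R 4.3.3 with 1 mean per group over 25 arrays, eBayes, two-sided tests and Benjamini-Hochberg adjustment over 20260 genes, with a threshold of 0.05. Errors beside differences are standard errors. Correlations and permutation tests were computed with numpy 2.4.6, with ranks from scipy 1.17.1. The fit was tested on simulated data for DMM against naive mice at 16 weeks over 20260 genes. It recovered 94 of 100 genes shifted by 1 and 99 of 100 shifted by 2, with 12 unshifted genes called. Recovery at the wider spread of the sheath genes was not tested separately. Their median residual SD was 0.62, beside 0.121 for all genes. In the real data Slc22a6 differed by 0.99 in that comparison and did not pass (limma adjusted p = 0.506). A sheath gene without a call may therefore still have been shifted by 1.

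The 10 genes, the lists and the tests were chosen with earlier results of these data known. Named by rule were all 10 genes, genes of highest level from each list, and the 10 genes of highest correlation; other genes of a list were named after their values were seen. Alternatives covered filters, normalization, prior, array weights, probe set choice, arrays in the fit, the replicate number as a block and each array left out. Over 21 pairs of arrays with equal numbers the deviations from group means correlated at -0.359 to 0.318, and only for sham and naive mice at 16 weeks were all 3 above 0.1 (0.108, 0.224 and 0.308). All comparisons reported above, this one included, were fitted without pairing. The block given below is an alternative and shares its replicate effects across all groups.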

Additional observations from a re-analysis of the deposited data

How the results depend on the processing

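The reported count of the 10 genes past the threshold was 0 throughout, and it stayed 0 in 302 of 309 repeats under other settings. In the other 7 repeats 1 to 5 genes passed. Medians moved by less than 0.62, the median residual SD between arrays of the 10 genes, in 269 of 276. None of 150 single differences passed as reported, and 12 of 2730 repeats of them under other settings did. With array weights 1 gene passed in each of DMM at 16 against 4 weeks (Slc22a6, beside 4.45% of all genes), naive at 16 against 4 weeks (Igfbp2, beside 26.2%) and the F test (beside 20.1%). Fitted on only the arrays compared, 2 passed in naive at 16 against 4 weeks (Slc6a13 and Igfbp2), beside 15.8% of all genes. With the replicate number as a block 0 genes passed, and the lowest adjusted p was 0.153. For sham against naive at 16 weeks the block, fitted over all groups, left the median at 0.47, and no call of the 10 genes changed. Of all genes 2 passed there, against 1 without the block.

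Leaving out 1 array at a time gave counts of 0 to 4 for DMM against naive at 16 weeks and for DMM at 16 against 4 weeks, and 0 to 5 in the F test, all above 0 only without DMM replicate 3 of 16 weeks, where 1.6%, 2.58% and 13.1% of all genes passed. Medians ran from 0.41 to 1.72 for DMM against naive at 16 weeks, from -0.14 to 1.35 for DMM against sham at 16 weeks and from 0.036 to 1.51 for DMM at 16 against 4 weeks. For the change between 16 and 4 weeks they ran from 0.50 to 1.82 against naive and from -0.68 to 0.76 against sham. The lowest and highest of each came without DMM replicate 2 and replicate 3 of 16 weeks; the cause was not tested. In the other 10 comparisons the medians kept their direction except for DMM against naive at 4 weeks (-0.25 to 0.15), and that of 8 weeks ran from 0.10 to 0.72. With 3 arrays a group, an exact permutation test of 1 gene cannot go below p = 0.1. The dim probe sets of Slc22a6 and Foxd1 limit what their differences show. Of the rest, Foxc2 and Igfbp2 exceeded the 95th percentile of the negative controls in 0 of 25 arrays, Aldh1a2 in 1 and Slc6a13 in 6. Igf2 did so in 9, Slc47a1 in 12 and Ptgds in 23. All of these exceeded the negative control median in 25 arrays, but low levels limit the differences of Foxc2, Igfbp2 and Aldh1a2 as well.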
